A study of Mus musculus with 15 samples.

Results

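The subject here is a set of 39 mouse genes of the interferon response, measured in CD4 T cells of the gut wall on 15 arrays. A gene entered the set by its name, and the names were chosen with earlier results of these data known. Its probe with the highest mean signal over the arrays stood for it. All 39 names were on the array, among 34821 gene names in all. The cells were CD4 lymphocytes sorted by flow cytometry from the small-intestinal lamina propria, the connective tissue under the gut epithelium, of male mice. A control group on normal chow was compared with mice after 10 days and after 30 days on a high-fat diet, with 5 arrays in each group. The diet served to alter the gut microbiota, per the series' design text, and no genetic change or drug is named for any group. The labels give neither strain, age nor a time point for the controls, so days on the diet and the age of the mice cannot be told apart. Whether each of the 5 samples in a group was taken from its own mouse is not stated, and p-values measure the spread between these samples only, which may be technical. In such bulk samples, fewer cells that express a gene and less RNA per cell cannot be told apart.

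Interferons are secreted proteins that cells release on sensing viral or bacterial nucleic acid. Type I interferons bind the receptor chains IFNAR1 and IFNAR2, the kinases JAK1 and TYK2 pass the signal on, and a complex that contains IRF9 binds the interferon-stimulated response element in DNA. Type II interferon, made by T cells and natural killer cells, acts through a receptor of its own and through gamma-activated sequences in DNA. Both routes switch on antiviral genes, and in the gut a low tonic signal from commensal microbes is known to keep some of them active.

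A larger share of the set's promoters than of promoters at large held letters that match the response element. The motif was searched on both strands as GAAA, any 2 bases and GAAA, in windows of 300 bases around annotated start sites (RefSeq, build GRCm38.p6). Of the 39 genes, 29 had an entry, and 14 of these (48.3%) held a match, against 3.99% of 27025 genes in the table. The gamma-activated sequence TTCNNNGAA was in 10 of the 29 (34.5%), against 9.55% of all genes. The stretches below show the element before the start sites of genes described further on, 5′ to 3′ on the gene's strand, with matching bases in capitals. They lie at chr4:156200867-156200916 on the minus strand for Isg15, chr8:71537573-71537622 on the minus strand for Bst2 and chr19:34640765-34640814 on the plus strand for Ifit1. For Ifit3 the stretch is chr19:34583353-34583402 on the plus strand, for Oas1a chr5:120907526-120907565 and for Oas1g chr5:120887614-120887651, both on the minus strand.
Isg15: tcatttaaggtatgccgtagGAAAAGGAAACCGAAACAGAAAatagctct
Bst2: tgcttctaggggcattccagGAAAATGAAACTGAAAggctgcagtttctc
Ifit1: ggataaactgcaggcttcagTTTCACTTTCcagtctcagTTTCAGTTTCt
Ifit3: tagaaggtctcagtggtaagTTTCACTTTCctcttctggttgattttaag
Oas1a: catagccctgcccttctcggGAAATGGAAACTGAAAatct
Oas1g: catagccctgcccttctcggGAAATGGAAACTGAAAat
In Isg15, 3 overlapping matches ran together, the first starting 78 bases before the start site. The Oas1a and Oas1g stretches were identical over all 38 bases compared. A match shows only that these letters are present; no binding was measured.

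Levels are given as log2 of the processed signal minus the array's 75th percentile of all probes, so that 0 is the brightness of the probe at that percentile and each unit is a doubling. A probe counted as measured on an array where the scanner software called it well above background. The arrays differed in how much they detected: between 50.9% and 82.0% of spots were well above background on control arrays, between 55.3% and 61.9% at day 10 and between 45.2% and 59.5% at day 30. The arrays lay on 2 slides. All controls and day 10 replicates 1 to 3 were on one, and day 10 replicates 4 and 5 and all day 30 arrays on the other, so no slide held both control and day 30. Of 10 T cell markers, 9 were well above background on all 15 arrays, Cd4 and Cd3e included. Of 8 B and plasma cell markers 2 were so on all arrays and 1 (Ms4a1) on none, and of 6 stromal and endothelial markers none on all and 1 (Cdh5) on none. Cytotoxic genes (Gzma, Gzmb, Nkg7, Prf1) and Siglech, a marker of the plasmacytoid dendritic cells that are strong interferon producers, were so on all. As log2 of the summed signal over a list, the T cell markers ranged from 5.42 to 7.95 in controls, 6.63 to 7.43 at day 10 and 6.71 to 7.97 at day 30. The 8 plasmacytoid markers were Siglech, Tcf4, Irf8, Ccr9, Klk1, Pacsin1, Cox6a2 and Runx2. They ranged from 6.66 to 7.31, from 6.60 to 7.09 and from 6.64 to 7.70 in the same order, with 3 of 8 on all arrays. The macrophage and dendritic cell markers ranged from 2.60 to 4.26, from 3.05 to 3.86 and from 2.96 to 4.30, with 2 of 10 on all arrays. The B and plasma cell markers ranged from 0.68 to 2.58, from 0.82 to 4.12 and from 1.90 to 4.88. The epithelial markers ranged from 7.84 to 8.32, from 7.79 to 8.45 and from 7.95 to 9.14, with 2 of 8 (Pigr and Krt18) on all arrays. The granulocyte markers ranged from 7.36 to 8.03, from 7.53 to 8.09 and from 7.70 to 8.65, with 1 of 5 (Csf3r) on all arrays. The cytotoxic and NK cell markers ranged from 5.53 to 7.87, from 6.59 to 7.42 and from 6.37 to 7.23, with 4 of 9 on all arrays. The stromal and endothelial markers ranged from 1.24 to 3.80, from -1.29 to 3.01 and from -0.56 to 3.92. The part of other cells in the results was not tested.

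The set fell into genes measured everywhere and genes measured only here and there. On all 15 arrays, 18 of the 39 genes were well above background, namely both type I receptor chains, Irf1, Ddx58, Zbp1, Adar, Trim25, Ifit1, Ifit2, Oas1b, Oas2, Isg15, Bst2, Isg20, Ifi35, Parp9, Gbp2 and Gbp3. A further 18 passed the filter of 5 or more arrays and were tested. Oas1g, Oas3 and Mx1 were well above background on only 2 arrays each and were not tested. Oas1g was so on 2 controls, and Oas3 and Mx1 each on 1 control and 1 day 10 array. No gene of the set was below background everywhere.

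Fewer genes of the set were measured after 30 days of diet than on chow. The number well above background was 35, 34, 31, 35 and 31 on the control arrays, 33, 35, 29, 32 and 33 at day 10, and 28, 27, 29, 25 and 30 at day 30. The day 30 arrays all lay below the control arrays, while day 10 overlapped both. The whole array moved the same way without separating: 57.4% to 85.4% of all gene names were well above background in controls, 62.0% to 67.5% at day 10 and 52.3% to 65.9% at day 30. Day 30 replicate 4, with the largest share of gene names of its group (65.9%), had the fewest genes of the set, 25. Control replicate 3, with a smaller share (57.4%), had 31. These arrays were the exceptions: the other controls held 61.2% to 85.4% of gene names and the other day 30 arrays 52.3% to 60.2%. On the slide that holds both diet groups, the 2 day 10 arrays had 32 and 33 and the 5 day 30 arrays 25 to 30. The part of array brightness in this difference was not tested.

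**Figure D1:**
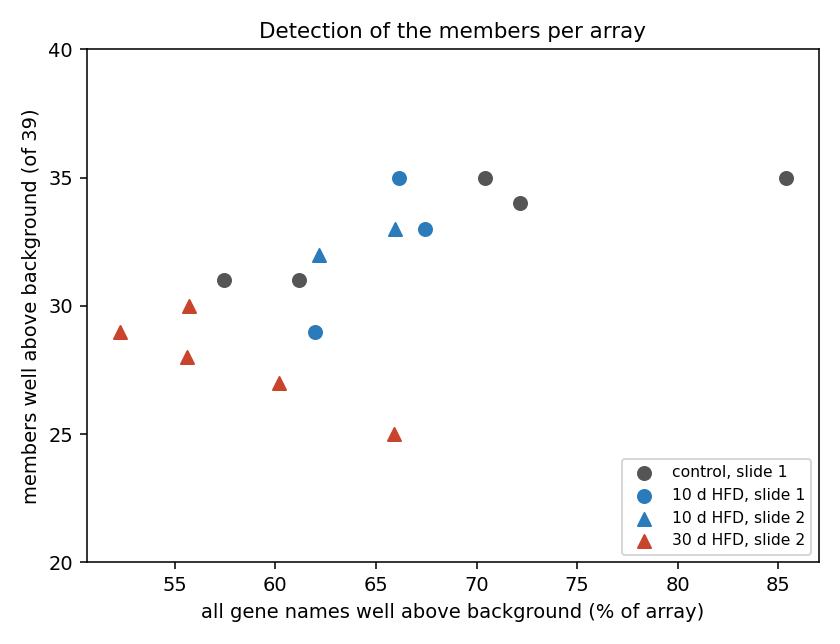
Each point is an array, with the share of all gene names well above background on the x axis and the number of the 39 interferon response genes well above background on the y axis; colours are the groups and symbols the slides. The day 30 arrays sit between 25 and 30 and the control arrays between 31 and 35, while their shares of all gene names overlap.

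**Figure D2:**
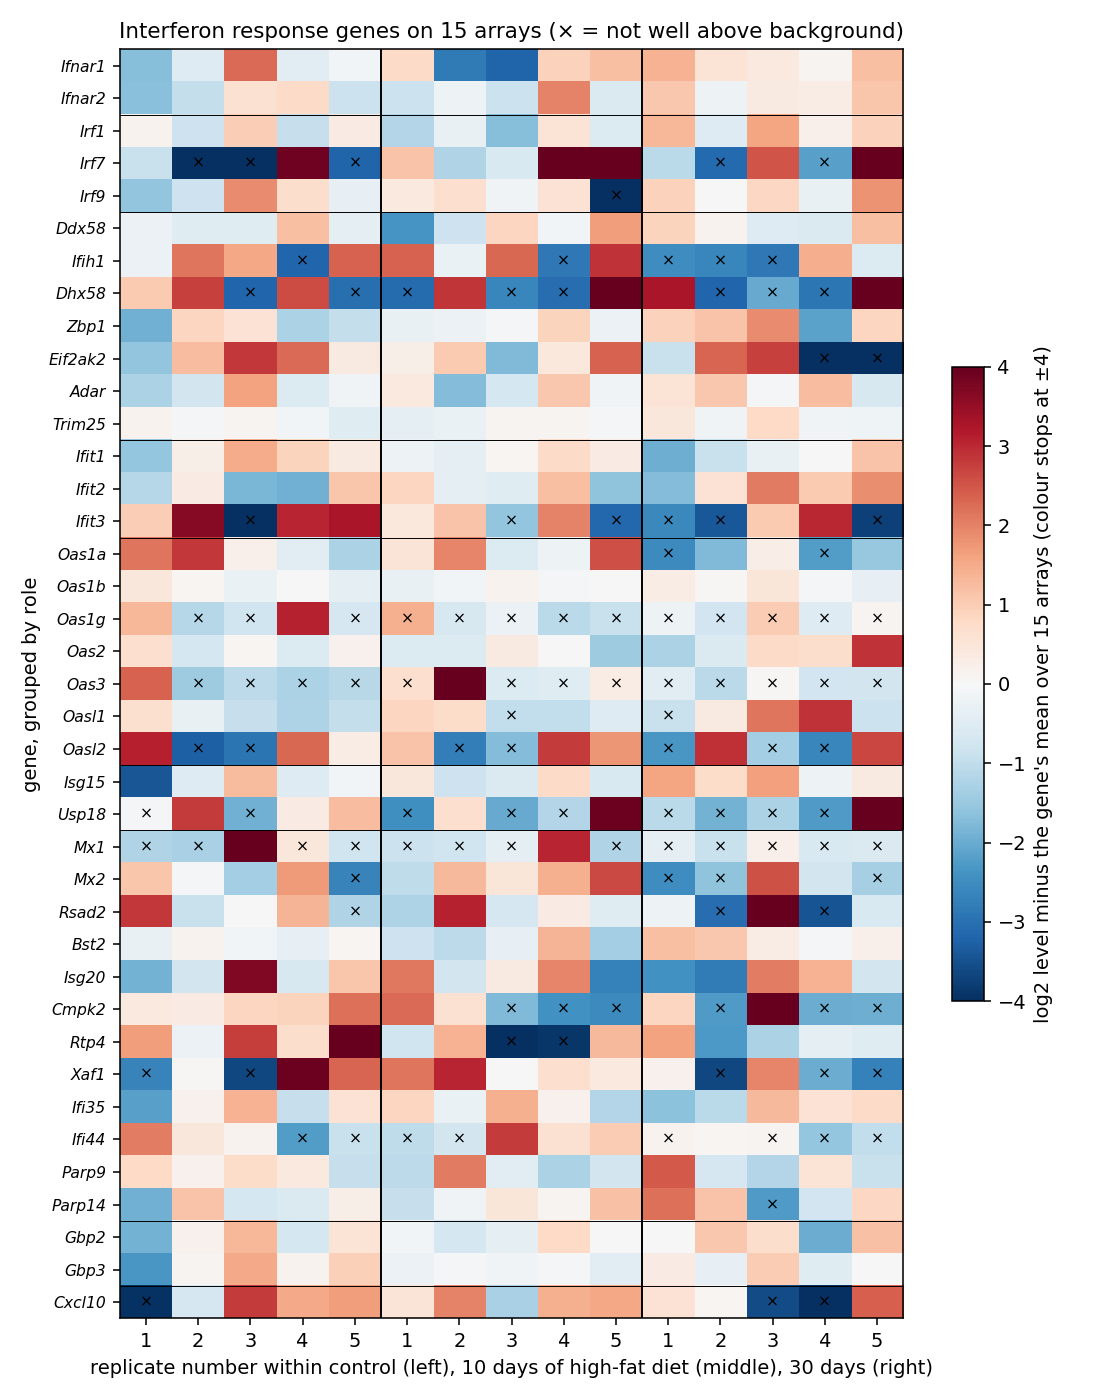
Heat map of the 39 genes (rows, grouped by role) on the 15 arrays (columns, by group and replicate), coloured by log2 level minus the gene's mean over the arrays; a cross marks a value not well above background. The strongest colours lie in rows with crosses, such as Irf7 and Dhx58, while Trim25 and Oas1b are nearly flat.

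None of the 36 genes tested was called as changed after 10 or 30 days of diet, with p-values adjusted over all 25998 genes tested. Between day 10 and control 16 were higher and 20 lower, with a median difference of -0.03 against 0.00 over all genes tested. Between day 30 and control 20 were higher and 16 lower, with a median of 0.07 against 0.00, and between day 30 and day 10 it was 21 and 15, with 0.21 against 0.06. Both diet groups are set against the same 5 controls. By limma with Benjamini-Hochberg adjustment, the smallest adjusted p in the set was 1.00 at day 10 and 0.926 at day 30, each against control, and 0.999 between the diet groups. No other gene passed either, so the background of calls was 0% in each comparison. At an unadjusted limma p under 0.05, 1 gene of the set stood out at day 10 (Rtp4), against 2.59% of all genes tested. At day 30 there were 2 (Oas1a and Isg15), against 5.14%, and between the diet groups 3 (Oas1a, Irf1 and Bst2), against 4.11%. The groups of 5 values overlapped for every gene of the set in each comparison, while among all genes they did not for 0.419%, 0.612% and 0.577%.

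**Figure D3:**
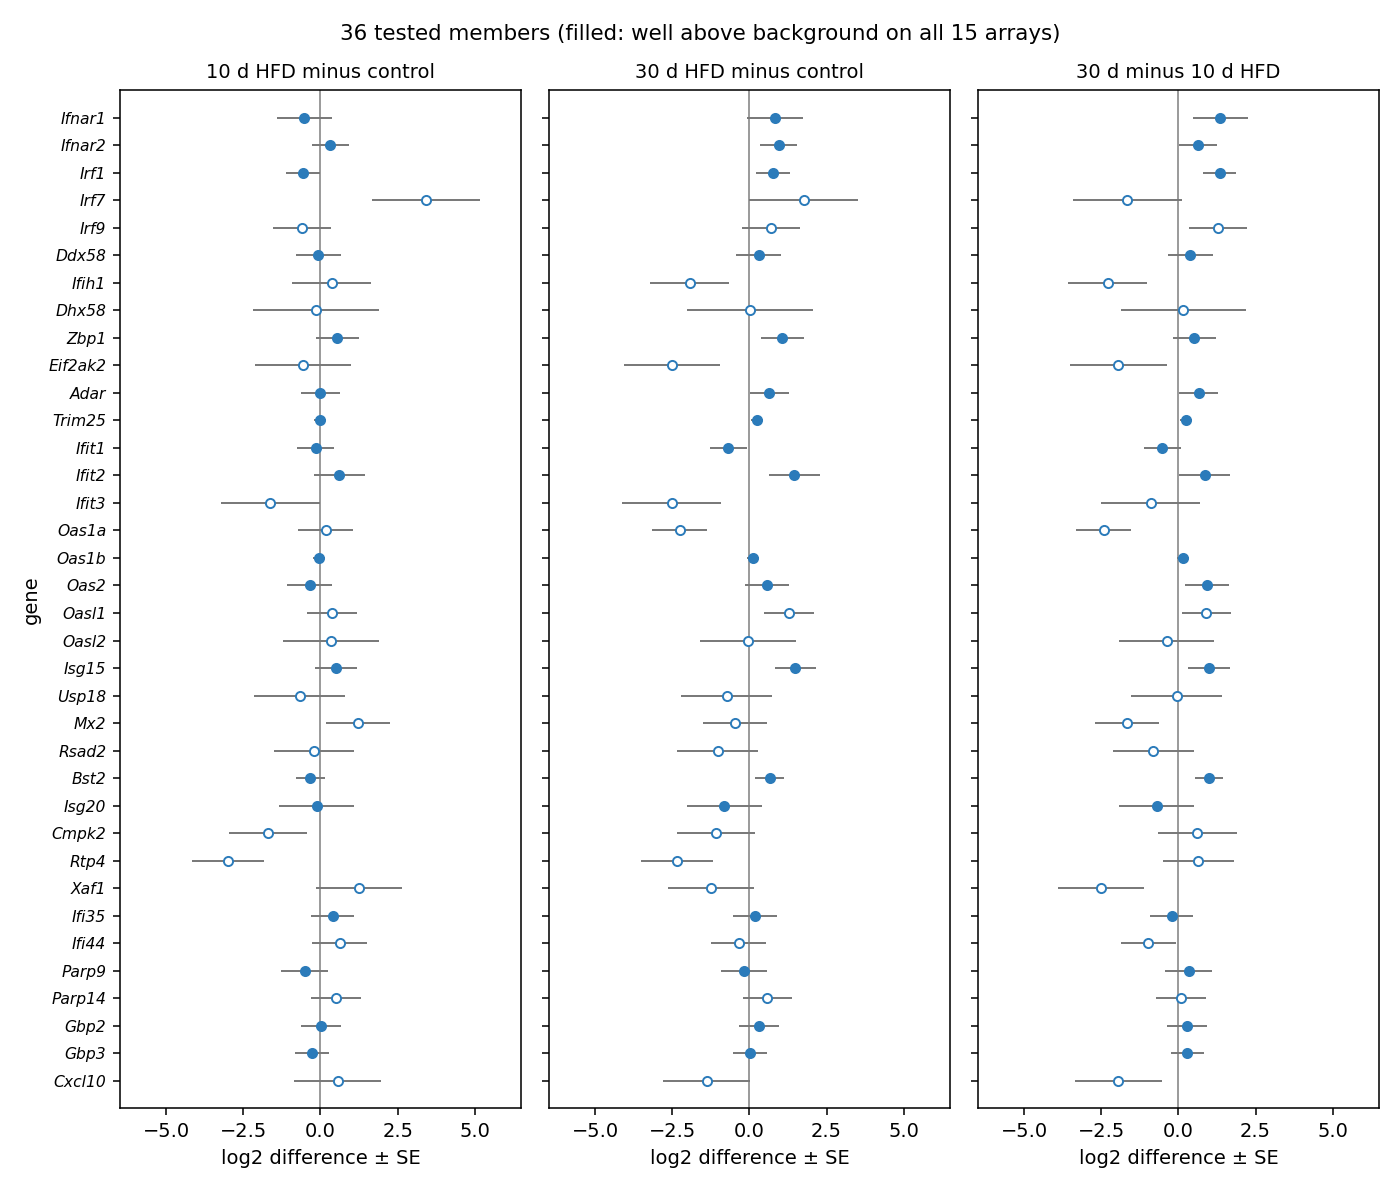
Difference in log2 level with its standard error for the 36 genes tested, in the comparisons of day 10 with control, day 30 with control and day 30 with day 10; filled points are genes well above background on all 15 arrays. Filled points cluster near 0, and the differences beyond 2 in size all belong to open points.

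The receptor chains were measured on every array and were not called in any comparison. Ifnar1 had a mean level of 1.54 ± 1.45 in controls, 1.01 ± 2.19 at day 10 and 2.37 ± 0.54 at day 30 (SD, 5 arrays each, as for all means here). Ifnar2 stood at 1.72 ± 1.07, 2.03 ± 1.19 and 2.66 ± 0.56. Each mean at day 30 was the highest of its gene, by 0.83 ± 0.90 (SE) and 0.95 ± 0.60 over control, and neither difference was called (limma adjusted p = 0.963 and 0.928). With slide in the fit both differences turned, to -1.99 and -0.39. At day 10 Ifnar1 differed from control by -0.53, and its other probes, measured on 13 and 7 arrays, by 1.13 and -1.06. At day 30 these other probes gave 1.10 and 0.34.

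Of the transcription factors, Irf1, which the type II signal induces, was lowest at day 10 and highest at day 30. Its levels were 1.76, 0.80, 2.60, 0.72 and 1.94 in controls, 0.45, 1.32, -0.06, 2.17 and 1.08 at day 10, and 2.95, 1.10, 3.19, 1.83 and 2.56 at day 30. The diet groups overlapped through day 10 replicates 2 and 4 and day 30 replicates 2 and 4. Day 30 exceeded day 10 by 1.33 ± 0.54 (limma unadjusted p = 0.026, adjusted p = 0.999), and by 0.70 within the slide that held both groups. Against control, Irf1 was 0.76 higher at day 30 but 0.29 lower (a log2 difference of -0.29) with slide in the fit. Its second probe, measured on 7 arrays, differed from control by -2.77 at day 10 and -1.27 at day 30.

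Irf7, the factor that amplifies type I interferon production, gave the largest difference of the set. Its levels were -2.84, -6.14, -6.20, 1.93 and -5.16 in controls, -0.80, -3.17, -2.58, 2.07 and 3.14 at day 10, and -3.05, -5.08, 0.57, -4.13 and 2.05 at day 30. It was well above background on all 5 day 10 arrays but on only 2 control and 3 day 30 arrays. The day 10 mean lay 3.41 ± 1.76 above control, and the difference was not called (limma unadjusted p = 0.070, adjusted p = 1.00). On the slide that held both groups the difference was 1.50, and the 2 brightest day 10 arrays, replicates 4 and 5, were on the other slide. Day 30 was 1.76 ± 1.76 above control, and the difference was -3.03 with slide in the fit. Irf9, a DNA-binding part of the complex that type I interferon activates, averaged 0.03 ± 1.36 in controls, -0.57 ± 2.25 at day 10 and 0.72 ± 0.82 at day 30. Its day 10 spread came from replicate 5, at -4.56, the only array where Irf9 was not well above background.

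The sensors of foreign nucleic acid include genes measured on every array and dimmer ones, and none was called. Ddx58, which encodes RIG-I, the sensor of RNA ends, had a control mean of -1.46 ± 0.73, with -1.53 ± 1.55 at day 10 and -1.15 ± 0.81 at day 30. Zbp1, a sensor that can trigger cell death, stood at 2.36 ± 1.21, 2.91 ± 0.49 and 3.43 ± 1.56, the day 30 mean including 1 array at 0.75. Adar, the RNA editing enzyme, stood at 0.56 ± 1.09, 0.55 ± 1.07 and 1.21 ± 0.79. The dimmer sensors had lower means or wider spreads at day 30. Ifih1, which encodes MDA5, the sensor of long double-stranded RNA, went from -1.28 ± 2.31 in controls and -0.92 ± 2.42 at day 10 to -3.22 ± 1.85 at day 30, where it was well above background on 2 arrays instead of 4 and 4. Eif2ak2, the kinase PKR that halts translation, was at 0.05, 3.26, 3.67, -5.99 and -3.75 at day 30, against a mean of 1.95 ± 1.73 in controls. The last 2 of these were not well above background, and the difference of -2.51 ± 1.56 was not called (limma adjusted p = 0.928). Dhx58, which encodes LGP2, a partner of both RNA sensors, was well above background on 3, 2 and 2 arrays and had group means within 0.16 of each other.

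Trim25, the ubiquitin ligase that acts with RIG-I, was flat at 9.97 ± 0.25, 9.95 ± 0.21 and 10.21 ± 0.45, on a probe that shares sequence with others. The probe contains a run of 31 bases of alternating T and G and shares a stretch of 20 bases with probes of 52 other gene names. It was the only brightest probe of the set (2.56% of 39) to share such a stretch, against 10.1% of genes tested. The other Trim25 probe, well above background on 11 arrays, was 3.33 lower at day 30 than in controls (a log2 difference of -3.33).

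The IFIT genes encode proteins that bind foreign RNA and block its translation, and none was called. Ifit1 was measured on every array at 2.13 ± 1.14 in controls, 1.97 ± 0.45 at day 10 and 1.45 ± 1.14 at day 30. Ifit2 was measured everywhere too, and its mean was highest at day 30, with -0.82 ± 1.35, -0.22 ± 1.13 and 0.63 ± 1.53. Its levels at day 30 were -1.88, 0.45, 1.95, 0.92 and 1.71, and those in controls -1.26, 0.20, -1.96, -2.06 and 0.97. All but 1 of the day 30 values exceeded the control mean, and the difference of 1.46 ± 0.82 did not pass (limma unadjusted p = 0.095, adjusted p = 0.926). Ifit3 had a log2 difference of -2.52 ± 1.60 at day 30 (limma adjusted p = 0.928), and 4, 3 and 2 of its values in the groups were well above background.

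The OAS family makes the messenger that activates RNase L, and Oas1a had the smallest p of the set in the comparison of the diet groups. Its levels were 0.48, 1.19, -1.45, -2.07 and -2.90 in controls, -1.13, 0.32, -2.19, -1.83 and 0.93 at day 10, and -4.20, -3.41, -1.38, -3.89 and -3.16 at day 30. All but 1 day 30 array (replicate 3) lay below every control and day 10 array, and 2 of them (replicates 1 and 4) were not well above background. The probe (mm9 chr5:121348338-121348397, minus strand) gave a difference of -2.43 ± 0.88 between day 30 and day 10 (limma unadjusted p = 0.014, adjusted p = 0.999) and -2.26 ± 0.88 between day 30 and control (unadjusted p = 0.021, adjusted p = 0.926). With slide in the fit the differences were -2.76 and -2.81. In that fit no gene of the set, Oas1a included, had an unadjusted limma p under 0.05 between day 30 and control. Each array was also left out in turn, without slide in the fit. The unadjusted limma p stayed under 0.05 in 15 of 15 fits between day 30 and day 10. Against control it did so in 12 of 15. For each difference, 5 of the 15 fits left out an array of the third group. In those fits the difference itself could not change. The other Oas1a probe, well above background on 5 arrays, gave -1.81 and -2.30. Oas1a has close paralogs, so its probe may also report them. Oas1b, a relative that lacks activity in many laboratory strains, was flat at 7.21 ± 0.32, 7.17 ± 0.16 and 7.33 ± 0.32. Oas2 stood at -1.72 ± 0.56, -2.07 ± 0.68 and -1.14 ± 1.59, the last including 1 array at 1.25. The OAS-like genes Oasl1 and Oasl2 differed from control at day 30 by 1.28 ± 0.80 and -0.05 ± 1.55.

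Isg15, the ubiquitin-like protein that interferon induces and that is coupled to other proteins, had its highest mean at day 30. Its levels were 0.10, 2.99, 4.77, 2.99 and 3.40 in controls, 3.97, 2.68, 2.95, 4.27 and 2.91 at day 10, and 5.10, 4.24, 5.16, 3.31 and 3.89 at day 30. Control replicate 1 was far below the rest, and control replicates 3 and 5 lay within the day 30 range. The means of 2.85 ± 1.70 and 4.34 ± 0.80 differed by 1.49 ± 0.67 (limma unadjusted p = 0.042, adjusted p = 0.926). Control replicate 1 was the array with the largest share of spots above background (82.0%), and without it the difference was 0.80. With each array's share of spots as a covariate it was -0.15. The second Isg15 probe, also measured on all arrays, pointed the other way at day 30, with a difference of -0.59. That probe was dimmer, with a mean of -0.05 against 3.52. It shares a stretch of 20 bases with a probe of 1 other gene name, Gm9706, so it may also report that gene. Usp18, the protease that removes ISG15 and restrains the type I receptor, was well above background on 3, 2 and 1 arrays, with means of -2.85 ± 1.73, -3.53 ± 2.60 and -3.59 ± 3.07.

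**Figure D4:**
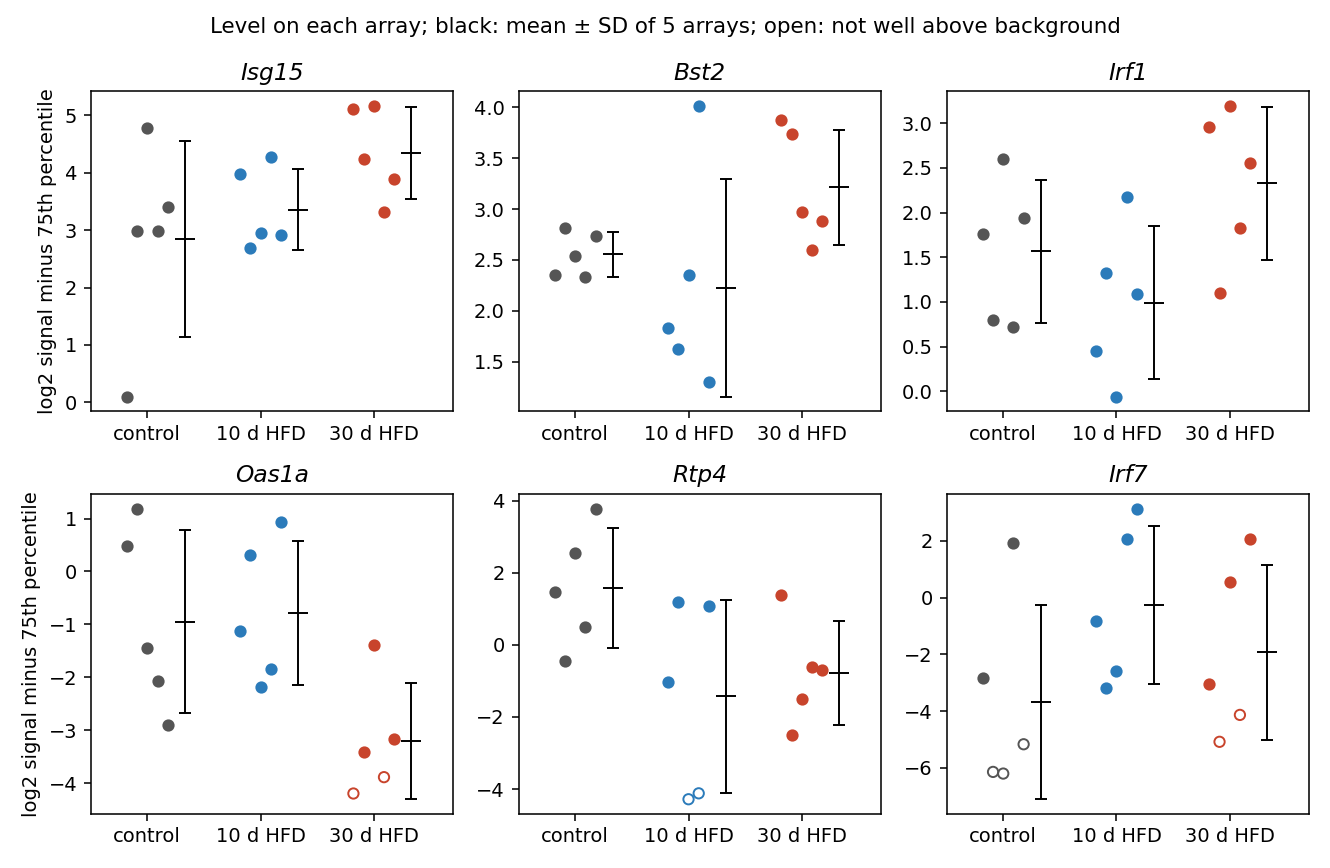
Log2 signal minus the array's 75th percentile of 6 genes on each array, by group; open circles are not well above background and black marks are the mean and SD of 5 arrays. The groups overlap in every panel: Isg15, Irf1 and Bst2 have their highest means at day 30, Oas1a its lowest at day 30, Rtp4 its highest in controls and Irf7 its highest at day 10.

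Among the effectors, Rtp4, an interferon-induced chaperone, had lower means in both diet groups. Its levels were 1.46, -0.45, 2.54, 0.50 and 3.78 in controls, -1.02, 1.19, -4.28, -4.12 and 1.08 at day 10, and 1.39, -2.51, -1.49, -0.61 and -0.71 at day 30. The low end at day 10 was set by replicates 3 and 4, which were not well above background, and 2 other day 10 arrays lay within the control range. The probe (mm9 chr16:23613668-23613727, plus strand) differed by -3.00 ± 1.16 at day 10 (limma unadjusted p = 0.020, adjusted p = 1.00), and by -2.94 within a slide. At day 30 the difference was -2.35 ± 1.16 (unadjusted p = 0.059, adjusted p = 0.926).

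Bst2, or tetherin, which holds budding virus at the cell surface, was the least variable effector in controls. Its levels were 2.36, 2.82, 2.54, 2.33 and 2.73 in controls, 1.84, 1.63, 2.35, 4.01 and 1.30 at day 10, and 3.87, 3.74, 2.97, 2.60 and 2.88 at day 30. All but 1 day 10 array (replicate 4) lay below every day 30 array. Day 30 exceeded day 10 by 0.99 ± 0.46 (limma unadjusted p = 0.048, adjusted p = 0.999), and by 0.56 within a slide. Against control it was 0.66 ± 0.46 higher at day 30, and -0.06 with slide in the fit.

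The other effectors measured on all arrays did not move beyond their spread. Ifi35, a signalling regulator, stood at 3.30 ± 1.38, 3.70 ± 1.00 and 3.48 ± 1.26, and Isg20, an RNA exonuclease, at 0.17 ± 2.18, 0.05 ± 2.01 and -0.65 ± 2.19. Parp9, which belongs to a family of ADP-ribosyltransferases, stood at 0.63 ± 0.68, 0.12 ± 1.36 and 0.45 ± 1.49. Its relative Parp14 was well above background on 14 arrays and differed by 0.50 ± 0.80 and 0.58 ± 0.80 from control at day 10 and day 30.

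Several dim effectors were measured on unequal numbers of arrays in the groups. Cmpk2, a mitochondrial nucleotide kinase, was well above background on all 5 controls but on 2 arrays in each diet group. Its levels were -3.41, -3.46, -2.95, -2.90 and -1.61 in controls, -1.53, -3.19, -5.56, -6.23 and -6.35 at day 10, and -2.92, -6.07, 0.74, -5.78 and -5.75 at day 30. Diet arrays thus lay on both sides of the controls, and the differences of -1.70 ± 1.27 and -1.09 ± 1.27 did not pass (limma adjusted p = 1.00 and 0.967). With slide in the fit the second was 1.77. The other Cmpk2 probe, well above background on 6 arrays, differed from control by -0.78 at day 10 and 1.35 at day 30. Mx2, a dynamin-like antiviral GTPase, was well above background on 4, 5 and 2 arrays in the order control, day 10 and day 30, and Xaf1, a regulator of cell death, on 3, 5 and 2. Rsad2, which encodes viperin, was so on 4, 5 and 3 arrays and Ifi44 on 3, 3 and 1.

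The guanylate-binding proteins, GTPases that attack pathogen vacuoles and respond strongly to type II interferon, were measured on every array with no call. Gbp2 stood at 2.71 ± 1.24, 2.74 ± 0.55 and 3.02 ± 1.30, and Gbp3 at 4.11 ± 1.47, 3.84 ± 0.16 and 4.13 ± 0.59. Cxcl10, the chemokine that draws CXCR3-bearing T cells, was well above background on 4, 5 and 3 arrays. It averaged -0.38 ± 2.68, 0.18 ± 1.30 and -1.76 ± 3.08, a difference at day 30 of -1.38 ± 1.41 (limma adjusted p = 0.963).

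At day 30 the median difference from control was above 0 for the bright genes of the set and below 0 for the dimmer ones. Of the 18 measured on all arrays, 15 were higher and 3 lower than control, with a median of 0.44, against 0.21 over all genes measured on all arrays. The T cell markers moved likewise, with 9 of 10 higher and 1 lower than control and a median of 0.37. Of the 18 other genes of the set tested, 5 were higher and 13 lower, with a median of -0.88. No matching value over all dimmer genes tested is given, so this median cannot be called particular to the set. Raising values below detection to each array's lowest measured signal brought the median of the dimmer genes to -0.16. With each array's share of spots above background as a covariate, the medians were 0.08 for the bright genes and -0.83 for the dimmer ones. With slide in the fit, 10 of the bright genes were higher and 8 lower (median 0.04). In that fit 3 of the dimmer genes were higher and 15 lower (median -2.02). Single genes shifted as well with slide in the fit: the day 30 difference became -4.06 for Eif2ak2, -0.49 for Ifih1, -2.46 for Cxcl10, -3.45 for Oasl2, 2.24 for Oasl1 and 0.54 for Zbp1. No gene in either subset was called, and a subset taken by detection is not independent of the levels compared.

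Genes with and without a match to the response element's letters in the promoter window also had unlike medians. A gene without a match may still hold the element in other letters or outside the window. For Ddx58, Eif2ak2 and Ifih1 no match lay before the start site. At day 30 the 12 tested genes that held a match had a median difference from control of -0.85, and the 15 without one 0.65. With slide in the fit these were -0.91 and -0.06. On all arrays, 6 of the 14 with a match were well above background, and 8 of the 15 without one. For these the medians were 0.30 and 0.71. The split was made with the values known and has no test.

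Of the other genes of the pathway, 88 of the listed genes were on the array and 81 were tested, and none was called in any comparison. At day 10, 55 were higher and 26 lower than control, with a median of 0.21, where 12977 of all genes tested were higher and 13021 lower. An unadjusted limma p under 0.05 was found for 2 of the 81 (Irf2 and Tap1), against 2.59% of all genes. At day 30, 46 were higher and 35 lower, with a median of 0.19. Of these, 4 higher (Ikbke, Irf2, Psmb10 and Tap2) and 2 lower (Ifna2 and Phf11b) had such a p, against 5.14%. Between the diet groups it was 41 and 40, with a median of 0.01, against 0.06 over all genes, and 1 higher (Daxx) and 1 lower (Gbp7) had such a p, against 4.11%. Psmb10, Tap2, Phf11b, Daxx and Gbp7 are named because of these p-values, after they were seen. Among the ligands, Ifng, the type II interferon of T cells, averaged 1.14 ± 1.06 in controls, -0.01 ± 1.18 at day 10 and -1.09 ± 2.91 at day 30. The day 30 mean rested on 2 arrays, at -4.88 and -3.44, and the difference of -2.23 ± 1.11 did not pass (limma unadjusted p = 0.061, adjusted p = 0.926). Ifna2, a type I interferon named here after its values were seen, had a difference of -2.30 ± 0.92 at day 30 (limma unadjusted p = 0.024, adjusted p = 0.926), with 4, 3 and 1 of its values well above background. All 6 ligands tested had a lower mean at day 30 than at day 10, by log2 differences of -1.30 to -0.40. The smallest unadjusted limma p among these was 0.177. Against control, 4 ligands were higher and 2 lower at day 10, and 2 higher and 4 lower at day 30. Ifnb1, the first type I interferon made after infection, was well above background on 1 array.

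Signalling genes downstream of the receptors were mostly measured on all arrays. Jak1 averaged 1.77 ± 1.46, 1.90 ± 0.47 and 2.14 ± 1.20. Ifngr1, the ligand-binding chain of the type II receptor, averaged 5.12 ± 1.25, 5.55 ± 0.26 and 5.80 ± 0.66. Irf2, which competes with IRF1 for its sites, was higher than control by 1.23 ± 0.54 at day 10 and 1.24 ± 0.54 at day 30 (limma unadjusted p = 0.035 and 0.034, adjusted p = 1.00 and 0.926). Ikbke, a kinase that activates IRF3 and IRF7, had the largest difference of these lists. Its levels were -3.45, -5.09, -1.01, -6.12 and -1.16 in controls and 2.47, 1.60, 2.59, -3.22 and 3.29 at day 30. All day 30 arrays but replicate 4 lay above every control, and the difference was 4.71 ± 1.55 (limma unadjusted p = 0.0077, adjusted p = 0.926). It was measured on 3, 4 and 5 arrays of the groups. Values with slide in the fit are not given for the pathway genes outside the set, and no slide held both control and day 30.

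The brakes and the ISG15 ligation enzymes showed no call. Socs1 and Socs3, which inhibit JAK kinases, differed at day 30 by -0.47 ± 0.91 and 0.93 ± 0.55, and Ube2l6, the conjugating enzyme for ISG15, by -0.08 ± 0.35. The largest difference of the 6 was that of Ptpn6, the phosphatase SHP-1, named after its values were seen, at 2.91 ± 1.61 (limma unadjusted p = 0.089, adjusted p = 0.926). Tap1, the peptide transporter for MHC class I, was the only pathway gene whose day 10 and control values did not overlap, against 0.419% of all genes tested. Its levels were -2.05, -1.17, -2.13, -0.93 and 0.29 in controls and 1.47, 0.43, 2.00, 1.37 and 2.52 at day 10. The difference was 2.76 ± 1.10 (limma unadjusted p = 0.023, adjusted p = 1.00), and at day 30 it was 0.75 ± 1.10, with 1 array at -5.64. The immunoproteasome genes Psmb8 and Psmb9 were higher than control at day 30 by 0.83 ± 0.59 and 0.69 ± 0.61, and neither was called.

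Where a gene had several probes, they did not always tell the same story. Of the 39 genes 16 had more than 1 probe. Adar's second probe, measured on 11 arrays, was -3.03 at day 10 against control where the brighter one was -0.01, and Parp9's second probe, on 10 arrays, 2.85 where the brighter one was -0.51. Ifih1's probes gave -1.93 and -2.22 at day 30, and Zbp1's, both measured on all arrays, 1.07 and 0.18.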

How the data were processed

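Gene expression was measured on 15 one-colour Agilent arrays, after amplification of the RNA with SuperAmp and Cy3 labelling of cDNA, per the labels' protocols. The scanner files deposited by the authors hold linear intensity per spot from Agilent Feature Extraction 10.7.3.1 (protocol GE1_107_Sep09, mm9), per the file headers: background subtracted, spatially detrended, not scaled between arrays. Calls of well above background are other flags in those deposited files. The authors' deposited value table holds log2 values with 1 median (5.51) in all columns and missing values, and how it was scaled is not given in the sources used here; it served as an alternative. Amplification of small amounts of RNA can widen the spread of dim genes.

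Control spots and outlier-flagged spots were left out, log2 intensity was centred on each array's 75th percentile, and spots of a probe were averaged (46 probe values missing, 1 spot line unreadable). The brightest of 55681 probes stood for each of 34821 gene names, and 25998 names well above background on 5 or more arrays were tested with limma 3.58.1 in R 4.3.3 (group means over all 15 arrays, trended eBayes, two-sided, Benjamini-Hochberg over all genes, threshold 0.05). The code was tested on simulated data. Names are those of the array design; 34 of 39 matched a RefSeq symbol through the probe's transcript. Named genes are the whole set, given in full or by range, and pathway genes from a written list, not all of which are reported here; Tap1's full values, the pathway counts and the promoter split were chosen after values were seen. The members and lists were chosen with earlier results of these data known. Alternatives covered background correction, normalization, filter, probe choice, slide, detection share, array weights, replicate block and leaving out each array. Correlations between arrays ran from 0.627 to 0.819. The number of arrays limits the precision.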

Additional observations from a re-analysis of the deposited data

Results flagged for a closer look

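Among 114 groups of 5 values examined, 7 held a value far from the other 4, where chance gives about 1 in 20. At day 10, replicate 4 was at 4.11 for Ifnar2 (others 1.26 to 1.95) and at 3.78 for Zbp1 (others 2.62 to 2.82). Day 10 replicate 5 was at -4.56 for Irf9 (others -0.09 to 0.73), and day 10 replicate 2 at 2.49 for Parp9 (others -0.88 to -0.05). Control replicate 4 was at -0.17 for Ddx58 (others -1.87 to -1.62). At day 30, replicate 4 was at 0.75 for Zbp1 (others 3.74 to 4.80) and replicate 5 at 1.84 for Usp18 (others -5.58 to -4.39).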

How the results depend on the processing

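No alternative called any gene of the set: the smallest adjusted p over 31, 30 and 31 alternatives was 0.806 at day 10 and 0.388 at day 30, each against control, and 0.858 between the diet groups (limma). At day 10 against control the set's median ran from -0.20 to 0.08. At day 30 against control it ran from -0.44 (slide as a block) to 0.44 (genes measured on all arrays). Between the diet groups it ran from -0.18 (slide as a block) to 0.45 (genes measured on all arrays). With slide as a block these last 2 medians thus changed sign, from 0.07 and 0.21 in the main fit. The SD of that median between single arrays of a group was 0.69. A difference between means of 5 arrays varies less than single arrays do, so this SD cannot show that the moves are small. Of 36 genes, 15, 11 and 19 kept their sign in every alternative run. Same-numbered arrays did not deviate together (correlations from -0.126 to 0.153), so numbers were not taken as pairs; with a replicate block the median at day 30 was 0.07 and the smallest adjusted p 0.899. Fits within a slide and without the arrays of highest and lowest detection were added after seeing the data. Signal over background limits the dim genes: 21 of 39 were not well above it on all arrays.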
